A study of Mus musculus with 18 samples.

Results

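The gene expression of a TRIM21-carrying fibroblast line was compared with that of its parental line after an antibody had been electroporated into both. The comparison used 6 of the 18 samples of the series, chosen by their labels alone. The first group was 3 samples of NIH3T3-mCherry-mTRIM21 cells given IgG (TRIM21 line below), and the second was 3 samples of NIH3T3 cells given IgG (parental line, WT in the labels). NIH3T3 is an established mouse embryonic fibroblast line, and the derived line carries mouse TRIM21 joined to the red fluorescent protein mCherry. Both groups were electroporated with 7.5 µg of antibody in 2 pulses of 20 ms at 1400 V, and RNA was taken after 16 h. The same 2 lines given bovine serum albumin (BSA, 7.5 µg) or PBS alone, with 3 samples each, served to show where the IgG samples differed from them. The promoter that drives the fusion, the target of the antibody and whether the derived line is 1 clone or a pool are not given in the sources used here. With 1 derived line, the fusion and other differences between the lines cannot be told apart. Nothing in the labels says that the samples of a group came from separate cultures, so p-values measure the spread between these samples, which may be technical.

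TRIM21 is an E3 ubiquitin ligase of the cytosol that binds the constant part of antibodies. Antibody-coated viruses, or proteins bound by an antibody delivered into the cell, are ubiquitinated by it with the help of E2 enzymes such as Ube2w and the Ube2n-Ube2v2 pair, extracted by the unfoldase Vcp and destroyed by the proteasome. TRIM21 is also known to link antibody-coated pathogens to innate immune signalling through NF-kB and interferon-regulatory factors. The comparison addresses how far the mRNA of cells with abundant TRIM21 differs from that of cells with the endogenous amount when an antibody is present.

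The TRIM21 IgG libraries held 20.63e6 to 23.32e6 gene counts and the parental IgG libraries 19.51e6 to 22.02e6, so that 3 counts corresponded to 0.1305 to 0.1484 CPM (counts per 1e6 gene counts) and 0.1394 to 0.1523 CPM. The share of counted reads outside annotated genes was 15.15% to 16.18% in the TRIM21 line and 16.33% to 17.26% in the parental line. These ranges did not overlap, and the part of this gap in the results below was not tested. All 12 fibroblast markers examined, among them Col1a1, Col1a2, Vim and Pdgfra, were measured, and none passed the threshold. Their summed level was 32200 to 33700 CPM in the TRIM21 line and 33800 to 39900 CPM in the parental line. The summed level of 10 macrophage and blood markers was 13.5 to 16.8 CPM against 12.6 to 14.7 CPM, with Emr1, Cd3e and Hba-a1 at 0 counts. Epithelial, endothelial and skeletal muscle markers summed to under 2 CPM in every sample, and 7 adipocyte markers to 15.9 to 27.7 CPM against 19.7 to 24.2 CPM, with Pparg and Lep at 0.

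After IgG, 94 of 12140 tested genes (0.774%) differed between the lines at an adjusted p under 0.05 (edgeR quasi-likelihood test, Benjamini-Hochberg adjustment over all tested genes). The difference was uneven in direction. Only 7 genes (0.0577%) were higher in the TRIM21 line and 87 (0.717%) were lower, while among all tested genes 6262 had a fitted value above 0 and 5878 below. With the number in the sample titles (10, 11 or 14) as a replicate block, 19 were higher and 154 lower, so these counts depend on the model. Of the 94 genes, 65 differed at least 2-fold, 4 of them higher and 61 lower. By fitted size, which for genes with 0 or few counts rests on the small count that edgeR adds, 17 of the 87 falls reached 16-fold, 16 lay between 4-fold and 16-fold, 28 between 2-fold and 4-fold, and 26 were under 2-fold. Among the 17, Rnpepl1, Cxx1c and Epha7 had 0 counts in the TRIM21 line and lower bounds of 6.32-fold, 4.62-fold and 4.10-fold. The 95% interval of the ratio began at 4.17 for Ercc6l2, 5.88 for Jph1, 7.19 for Zfp422, 7.22 for 6430411K18Rik and 7.29 for Ppp1r3c. The falls of all these genes may thus be smaller than 16-fold. Each of them passed the count filter through parental samples only, so it could only be called lower. The 3 samples of a side did not overlap with the other 3 in any of the 94 genes. Such separation was common, since 8.95% of all tested genes were higher in the TRIM21 line without overlap and 10.8% were lower. In each of the 94 genes, all 3 pairs of samples sharing a title number (10, 11 or 14) had the same direction. This follows from the lack of overlap and is not a further reading.

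**Figure D1:**
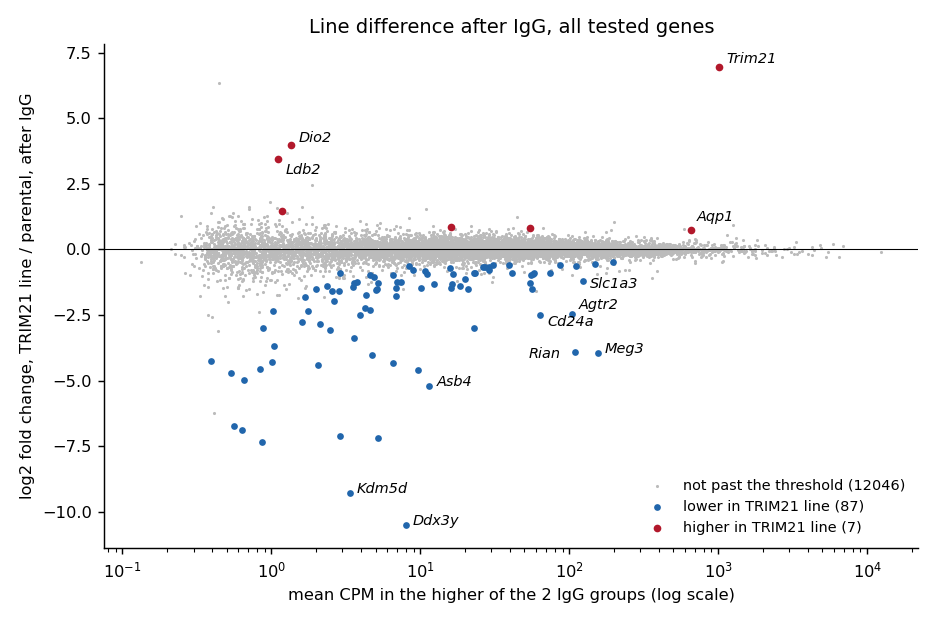
Log2 fold change between the lines after IgG (vertical axis) against the mean CPM of the higher group (horizontal axis, log scale), 1 point per tested gene. The 87 genes called lower reach far below the band of other genes, Ddx3y lowest, while 7 are called higher and Trim21 stands alone at the top right. Fitted values of genes at 0 counts depend on the small count that edgeR adds.

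The targeted gene Trim21 came first, as a check of the labels (chromosome 7, 102557921 to 102565486, minus strand, GRCm38, protein coding). It had 999, 984 and 1034 CPM in the 3 TRIM21 samples and 6.64, 8.78 and 8.82 CPM in the 3 parental samples. The 2 groups lay far apart, and the spread within either was small beside the gap. Mean levels were 1006 ± 25.5 and 8.08 ± 1.25 CPM (SD over 3 samples each), and the log2 fold change was 6.96 (SE 0.166, edgeR adjusted p = 4.18e-15). A two-sided exact permutation test over the 6 samples gave p = 0.1, the smallest value that its 20 assignments can give. These counts include reads from the fusion transcript wherever they map to Trim21. The line difference in Trim21 after IgG minus the mean of those after PBS and BSA was -0.08 on the log2 scale (SE 0.166, edgeR interaction test, unadjusted p = 0.621).

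Besides Trim21, 6 genes were higher in the TRIM21 line. The largest rise was in Dio2 (chromosome 12), the deiodinase that converts the thyroid prohormone to its active form. Dio2 had 1.17, 1.24 and 1.66 CPM in the TRIM21 line and 0, 0.0508 and 0.197 CPM in the parental line, so it was at or near the limit of detection without the fusion. Its log2 fold change was 3.97 (SE 0.498, edgeR adjusted p = 0.00015). Ldb2 (chromosome 5) encodes a cofactor of LIM-domain transcription factors. It rose from 0.139, 0.0508 and 0.0986 CPM to 0.913, 0.989 and 1.44 CPM, a log2 fold change of 3.44 (SE 0.384, edgeR adjusted p = 3.81e-05). Both genes thus went from a few reads per library to 20 to 37 reads, and the size of either rise is rough. They passed the count filter through samples of the TRIM21 line only, so they could only be called higher.

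The DNA sensor Aim2 had 1.30, 1.04 and 1.17 CPM in the TRIM21 line and 0.418, 0.355 and 0.493 CPM in the parental line. Its log2 fold change of 1.46 (SE 0.333) only just passed, with an edgeR adjusted p of 0.049, and it missed the threshold in each of the 6 fits that left out 1 IgG sample, with adjusted p-values of 0.0959 to 0.236. The Aim2 call was also lost with limma-voom and with the title number as a replicate block on the 6 IgG samples. Kcnn4, a calcium-activated potassium channel, was at 64.8, 52.8 and 45.1 CPM against 32.7, 26.6 and 31.9 CPM. Its log2 fold change was 0.84 (edgeR adjusted p = 0.0498). The Kcnn4 call was kept in 1 of the 6 fits that left out 1 IgG sample, that without the TRIM21 sample numbered 14. Adjusted p-values were 0.126 to 0.322 in the other 5. This call was also lost with DESeq2 size factors, with limma-voom and with a filter of at least 10 counts in every sample. Sorcs2, a sorting receptor, was at 18.1, 14.8 and 15.2 CPM against 9.85, 7.92 and 8.77 CPM, a log2 fold change of 0.86. The most abundant of the 7 after Trim21 was the water channel Aqp1. Aqp1 had 719, 612 and 652 CPM in the TRIM21 line and 395, 379 and 397 CPM in the parental line, a log2 fold change of 0.76 (SE 0.11, edgeR adjusted p = 0.000767). Sorcs2 and Aqp1 kept their call in each of the 6 fits.

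Among the 87 genes that fell, 4 were the Y-chromosome genes Ddx3y, Kdm5d, Eif2s3y and Uty, which were all of the Y-linked genes that could be tested, out of 9 listed. They had 0 to 2 counts in every TRIM21-line sample of the 3 treatments, so they passed the count filter through parental samples only. They could therefore only be called lower, and that all tested ones were lower follows from the filter. Ddx3y, an RNA helicase, had 153, 176 and 159 counts in the parental samples and 0 in each TRIM21 sample, at least 57.8-fold lower when 3 counts are taken as the floor in each library. Kdm5d, a histone demethylase, had 65, 59 and 82 counts against 0, at least 24.3-fold lower. The translation factor gene Eif2s3y had 319 counts in the parental group and 2 in the TRIM21 group, a ratio of 170 (95% interval 46.6 to 1410, counting error only). Uty had 176 counts against 1, a ratio of 187 (33.2 to 7440). None of the 8 X-linked genes examined beside them passed the threshold. Ddx3x was at 373 CPM in the TRIM21 line and 378 CPM in the parental line, and its log2 fold change was -0.02 (SE 0.119, edgeR adjusted p = 0.99). Xist, the RNA that coats an inactive X chromosome, stood at 0.317 and 0.289 CPM, with too few reads for a direction.

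The other 6 of the 10 largest falls, by the naming rule of at least 1 CPM in the higher group, were in Asb4, Lama2, AF357359, Papss2, Zfp422 and Fat4. Asb4, a substrate receptor of a cullin ubiquitin ligase, fell from 9.53, 12.7 and 12.2 CPM to 0.217, 0.297 and 0.404 CPM. This was a log2 fold change of -5.21 (SE 0.319, edgeR adjusted p = 1.01e-08). Lama2, the laminin alpha 2 chain of basement membranes, fell from 7.67, 9.95 and 11.3 CPM to 0.609, 0.297 and 0.269 CPM, a log2 fold change of -4.59 (SE 0.33). Papss2 makes the activated sulfate used to sulfate matrix sugars. It fell from 5.53, 7.31 and 6.70 CPM to 0.261, 0.396 and 0.314 CPM, a log2 fold change of -4.32 (SE 0.289). Fat4, a giant protocadherin, fell from 4.46, 4.67 and 5.17 CPM to 0.348, 0.297 and 0.224 CPM, a log2 fold change of -4.01 (SE 0.367). The edgeR adjusted p-values of Lama2, Papss2 and Fat4 were 8.62e-08, 3.16e-08 and 2.93e-06. In each of these genes the lowest parental sample was more than 10 times the highest TRIM21 sample. Zfp422, a zinc finger gene, had 62 counts in the parental group and 3 in the TRIM21 group, a ratio of 22 (95% interval 7.19 to 110, counting error only). These 6 genes passed the count filter through parental samples only, so they could only be called lower.

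**Figure D2:**
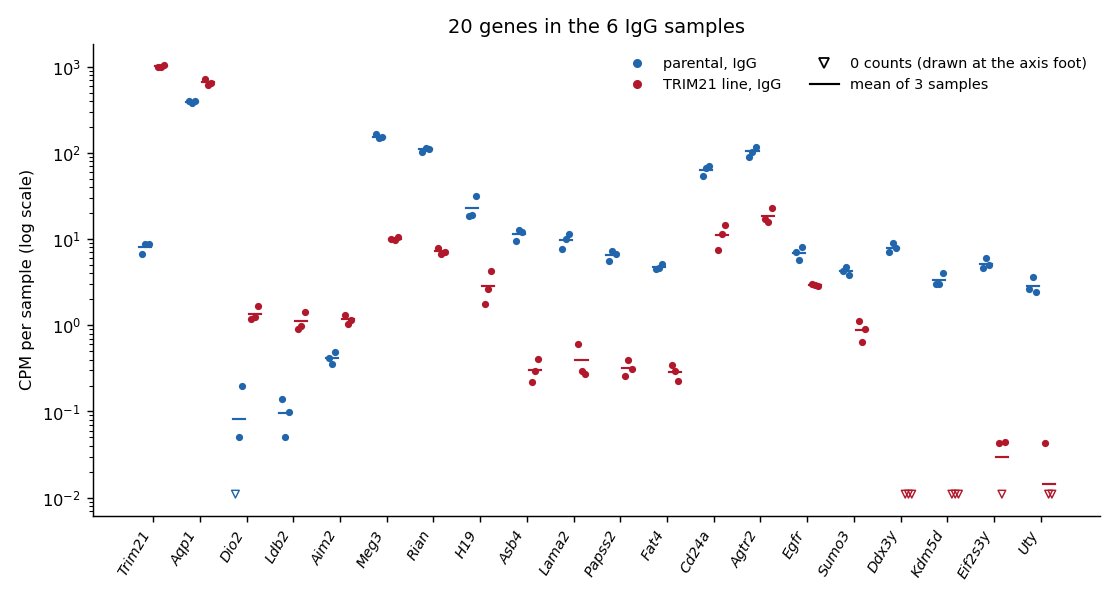
CPM (vertical axis, log scale) of 20 of the 94 called genes in the 3 parental (blue) and 3 TRIM21 (red) IgG samples, with a line at each group mean and open triangles for 0 counts. The groups are separate in every gene shown, with Trim21 at 6.64 to 8.82 CPM against 984 to 1034 CPM and Ddx3y at 0 counts in all 3 TRIM21 samples.

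The promoters of Asb4, Lama2, Papss2 and Meg3, the 4 largest fitted falls among called autosomal genes with 5 CPM or more in the parental line, and of Dio2, the largest rise after Trim21, are printed so that the start regions of these examples can be read beside their values. The sequences are from RefSeq on GRCm38.p6, run 5′ to 3′ on the gene's strand from 250 bases before to 50 bases after the start, and capitals mark the CG dinucleotide, which reads the same on both strands.
Meg3, chr12:109540746-109541045, plus strand: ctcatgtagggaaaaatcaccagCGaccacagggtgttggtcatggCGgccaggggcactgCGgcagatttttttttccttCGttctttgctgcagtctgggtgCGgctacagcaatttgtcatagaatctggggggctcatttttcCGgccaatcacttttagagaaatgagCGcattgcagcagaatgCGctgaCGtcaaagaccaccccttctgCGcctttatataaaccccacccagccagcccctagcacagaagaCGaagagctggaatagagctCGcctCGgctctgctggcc
Asb4, chr6:5383136-5383435, plus strand: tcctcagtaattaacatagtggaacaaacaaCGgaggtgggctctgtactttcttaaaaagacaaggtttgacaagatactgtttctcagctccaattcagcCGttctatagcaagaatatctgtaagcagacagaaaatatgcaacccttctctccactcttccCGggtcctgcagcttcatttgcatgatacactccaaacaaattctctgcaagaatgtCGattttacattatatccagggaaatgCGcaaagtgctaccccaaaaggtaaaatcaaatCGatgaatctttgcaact
Lama2, chr10:27616893-27617192, minus strand: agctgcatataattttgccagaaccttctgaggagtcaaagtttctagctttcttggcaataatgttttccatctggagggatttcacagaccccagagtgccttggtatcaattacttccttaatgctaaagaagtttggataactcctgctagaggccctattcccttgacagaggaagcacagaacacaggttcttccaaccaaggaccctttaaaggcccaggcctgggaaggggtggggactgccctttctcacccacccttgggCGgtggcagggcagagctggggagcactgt
Papss2, chr19:32595465-32595764, plus strand: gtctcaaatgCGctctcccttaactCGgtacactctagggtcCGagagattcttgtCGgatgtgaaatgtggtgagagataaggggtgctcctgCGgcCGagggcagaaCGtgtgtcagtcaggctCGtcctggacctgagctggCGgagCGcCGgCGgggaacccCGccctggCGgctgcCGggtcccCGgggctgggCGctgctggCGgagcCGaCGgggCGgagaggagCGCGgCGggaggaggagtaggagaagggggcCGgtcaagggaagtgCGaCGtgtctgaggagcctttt
Dio2, chr12:90738989-90739288, minus strand: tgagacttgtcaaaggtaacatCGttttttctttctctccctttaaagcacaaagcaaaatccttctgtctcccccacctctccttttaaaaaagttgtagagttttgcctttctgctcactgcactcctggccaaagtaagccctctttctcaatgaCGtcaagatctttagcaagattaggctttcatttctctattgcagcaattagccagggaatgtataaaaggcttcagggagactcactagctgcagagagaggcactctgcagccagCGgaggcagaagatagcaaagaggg
The CG dinucleotide occurred 13 times in the Meg3 window, 6 times in that of Asb4, 1 time in that of Lama2, 27 times in that of Papss2 and 3 times in that of Dio2. Over 32851 mouse promoter windows of the same length the median was 7, and 94.6% held at least 1. The 4 genes that fell had windows on both sides of this median, with the most CG in Papss2 and the fewest in Lama2. Each window belongs to the RefSeq start nearest to the gene's start in GENCODE annotation. The GENCODE start is at 27619758 for Lama2, upstream of the printed window. It is at 32595790 for Papss2 and at 90738438 for Dio2, in each case downstream of the printed window. The windows of Lama2, Papss2 and Dio2 thus do not hold the GENCODE start.

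Imprinted genes, which are expressed from 1 parental copy, had more called members than any other gene list examined. Of 31 listed genes 19 could be tested, and 7 of these were lower in the TRIM21 line, none higher, where 0.717% of all tested genes were lower. The 19 had a median log2 fold change of -0.25 beside 0.01 for all tested genes. The list was chosen with earlier results of these data known, and its count is a description. The 7 were, with Mirg, Ndn and Peg13 outside the naming rule and named after their values were seen, Meg3, Rian and Mirg of the Dlk1-Dio3 region, Asb4, H19, Ndn and Peg13.

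Meg3, Rian and Mirg are noncoding RNAs expressed from the maternal copy of the Dlk1-Dio3 region on chromosome 12, where Dlk1 and Rtl1 are expressed from the paternal copy. Meg3 (109541001 to 109571726) was at 163, 147 and 154 CPM in the parental line and at 10.0, 9.79 and 10.5 CPM in the TRIM21 line. Its log2 fold change was -3.94 (SE 0.213, edgeR adjusted p = 2.04e-09). Rian (109603940 to 109661716), which hosts small nucleolar RNAs, was at 102, 115 and 112 CPM against 7.96, 6.63 and 7.18 CPM, a log2 fold change of -3.92 (SE 0.158, edgeR adjusted p = 2.14e-11). In both genes every TRIM21 sample was below every parental one by more than 10 times. Mirg (109729764 to 109749460), farther along the same cluster, was at 29.5, 30.4 and 26.6 CPM against 17.2, 17.5 and 16.2 CPM. Its log2 fold change was -0.77 (edgeR adjusted p = 0.0288), and it lost its call in each of the 6 fits that left out 1 IgG sample, with adjusted p-values up to 0.126. The called genes of this stretch also took in the small nucleolar RNA AF357359, inside Rian, with 126 counts in the parental group against 6 in the TRIM21 group, and the antisense transcript 6430411K18Rik, with 40 against 1. How the authors' counting shared reads between AF357359 and Rian, or between 6430411K18Rik and Rtl1 on the other strand, is not stated, so these pairs are uncertain.

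The paternally expressed genes of the region were not called. Dlk1, a Notch-related transmembrane protein that restrains fat cell formation, was abundant in both lines, at 1547 CPM in the TRIM21 line and 1773 CPM in the parental line. Its log2 fold change was -0.20 (SE 0.187, edgeR adjusted p = 0.846), and its samples overlapped. Rtl1, a retrotransposon-derived gene, was at 4.65 against 9.04 CPM without overlap, a log2 fold change of -0.96 that missed the threshold (SE 0.238, edgeR adjusted p = 0.0846). Dio3, the deiodinase that inactivates thyroid hormone, had 0 counts in all 6 samples. The files list 77 symbols in the region, 9 of which could be tested, and 5 of these were lower and 0 higher, where 0.717% of all tested genes were lower. Of the 5, AF357359 and 6430411K18Rik passed the count filter through parental samples only and could only be called lower. AF357359 also lies inside Rian, so the 5 are not separate readings. The region's 61 microRNA symbols summed to 93 counts in the TRIM21 group and 197 in the parental group. PolyA-selected libraries hold few reads from microRNA precursors, and 2 of the 61 could be tested.

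On chromosome 6, Asb4 lies in a second imprinted region together with Peg10 and Sgce. Peg10 and Sgce had 0 counts in all 6 samples, and of 10 tested genes in this stretch Asb4 and its neighbour Pdk4, a mitochondrial kinase, were lower. Of all tested genes 0.717% were lower, and Asb4 passed the count filter through parental samples only. Pdk4 fell from 47.5, 56.5 and 62.3 CPM to 24.6, 26.1 and 33.6 CPM, a log2 fold change of -0.98 (edgeR adjusted p = 0.0433). The Pdk4 call was lost without the TRIM21 sample numbered 10 or 11, without the parental sample numbered 11 or 14, with a GC offset and with a filter of at least 10 counts in every sample, at adjusted p-values up to 0.26. Col1a2, in the same stretch, was at 5060 and 5457 CPM and was not called. The noncoding H19 fell from 18.5, 18.8 and 31.7 CPM to 1.78, 2.62 and 4.22 CPM, a log2 fold change of -2.999 (SE 0.377, edgeR adjusted p = 0.00015). Its neighbour Igf2, a growth factor expressed from the other parental copy, had 169 against 359 CPM. In Igf2 the samples numbered 14 were highest in both lines, with 5211 counts in the TRIM21 line and 10422 in the parental line. The log2 fold change of Igf2 was -1.09 and did not pass the threshold (edgeR adjusted p = 0.398). Ndn, a growth suppressor, was at 18.3 against 29.0 CPM, and the noncoding Peg13 at 12.32 against 22.97 CPM, with log2 fold changes of -0.66 and -0.90 (edgeR adjusted p = 0.00428 and 0.00713). The Ndn call was lost without the TRIM21 sample numbered 11 (adjusted p = 0.0617). The Peg13 call was lost without the TRIM21 sample numbered 10 or 11 or the parental sample numbered 11 or 14, at adjusted p-values up to 0.0805. The abundant imprinted genes Grb10, Igf2r, Gnas and Impact had log2 fold changes of -0.24, -0.19, -0.01 and 0.0025, and none was called.

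**Figure D3:**
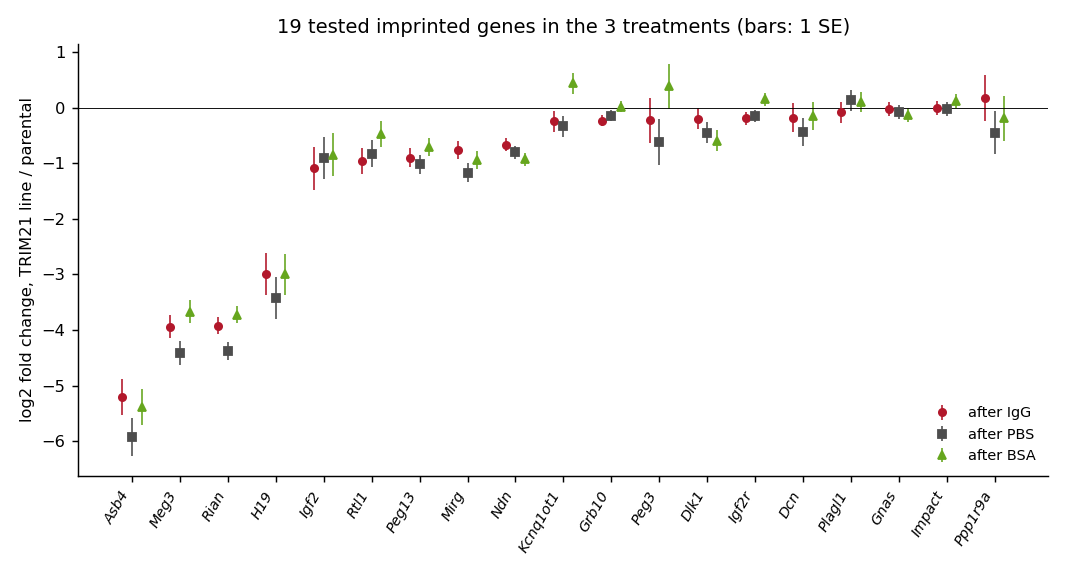
Log2 fold change between the lines (vertical axis) of the 19 tested imprinted genes after IgG (circles), PBS (squares) and BSA (triangles), with bars of 1 SE. Asb4, Meg3, Rian and H19 lie between -2.999 and -5.93 in all 3 treatments, while Gnas and Impact stay near 0 and Dlk1 goes no lower than -0.59.

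Most listed genes of the extracellular matrix and its turnover were not called, and each called member of these 3 lists had a mean under 10 CPM in both lines. In the list of matrix glycoproteins and crosslinkers, 2 of 26 tested members were lower, where 0.717% of all tested genes were: Lama2, described above, and Lum, a small proteoglycan that spaces collagen fibrils. Lum was at 1.77, 2.13 and 2.46 CPM in the parental line against 0.304, 0.0495 and 0.493 CPM in the TRIM21 line, a log2 fold change of -2.85 (SE 0.596, edgeR adjusted p = 0.0234). Its call was lost without the TRIM21 sample numbered 10 or 11 or the parental sample numbered 11 or 14, with adjusted p-values of 0.072 to 0.151. Of 21 tested collagens, Col11a1 alone was called, at 4.55, 5.43 and 5.57 CPM against 2.26, 2.77 and 1.39 CPM (log2 fold change -1.28). The major fibroblast collagens Col1a1 and Col3a1 were at 2979 against 3359 CPM and 4372 against 5309 CPM, with edgeR adjusted p-values of 0.924 and 0.878. Of 25 tested matrix proteases and inhibitors, the membrane protease Mmp16 and the serine protease inhibitor Serpine2 were lower. Serpine2 fell from 3.25, 5.38 and 5.08 CPM to 1.00, 0.692 and 1.03 CPM, a log2 fold change of -2.31 (SE 0.277, edgeR adjusted p = 9.56e-05). Mmp16 was near 1 CPM in the parental line, and its log2 fold change was -2.33. Lama2 and Mmp16 passed the count filter through parental samples only, so they could only be called lower.

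Of 24 tested growth factor receptors, Egfr and Epha4 were lower, where 0.717% of all tested genes were lower, a share that also stands beside the other counts of this paragraph. Egfr, the receptor of epidermal growth factor, was at 7.06, 5.74 and 8.13 CPM in the parental line and 3.04, 2.97 and 2.87 CPM in the TRIM21 line, a log2 fold change of -1.24 (SE 0.204, edgeR adjusted p = 0.00245). Epha4, an ephrin receptor, was at 11.01, 11.01 and 11.43 CPM against 5.74, 5.04 and 6.73 CPM, a log2 fold change of -0.93 (edgeR adjusted p = 0.00529, and 0.0545 without the TRIM21 sample numbered 11). The abundant receptors Pdgfra, Axl and Igf1r were not called. Pdgfra was at 785 against 1078 CPM, with a log2 fold change of -0.46 (SE 0.256). Of 23 tested cadherins and adhesion genes, Fat4 and the integrin Itgb3 were lower, and Itgb3 (log2 fold change -0.80, edgeR adjusted p = 0.0254) lost its call in all 6 fits that left out 1 IgG sample (adjusted p of 0.0742 to 0.145). Fat4 passed the count filter through parental samples only and could only be called lower. In the same list the virus receptor Cxadr, singled out after its values were seen, had 14, 10 and 5 counts in the TRIM21 samples and 0 in each parental sample, and it missed the threshold (edgeR adjusted p = 0.124). Of 26 tested contractile and YAP target genes, Myl9, a myosin light chain, was lower, at 29.75, 31.11 and 28.61 CPM against 59.1, 48.3 and 63.2 CPM (log2 fold change -0.93). Of 18 oxidative stress genes, Gstm1 was lower, with a log2 fold change of -0.56 (edgeR adjusted p = 0.0258), a call lost without any 1 of the TRIM21 samples or without the parental sample numbered 14 (adjusted p of 0.0929 to 0.242). Gstm1 and the neighbouring Gstm2, also called, are close relatives whose reads the counting may split, so either value is uncertain.

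Among the tested members of the pathway in which TRIM21 acts, no gene besides Trim21 itself was called. Over all tested genes 0.774% were called. At that share, lists of the sizes in this paragraph would hold few or no calls. Of the 19 other tested members, the E2 enzyme Ube2w was at 56.6 against 62.7 CPM, Ube2n at 67.3 against 74.3 CPM and Vcp at 269.9 against 263.9 CPM. The 20 members, Trim21 included, had a median log2 fold change of 0.00076, with 10 fitted above 0 and 10 below. Of 36 tested TRIM family genes, 18 were fitted above 0 and 18 below, and none was called in either direction. Trim47 had the largest fitted value of that list, at 0.54 (SE 0.212, edgeR adjusted p = 0.515). All 32 proteasome subunit genes were tested and none was called. Of these, 26 were fitted above 0 and 6 below, with a median of 0.06, and the one farthest from 0, the ubiquitin receptor Adrm1, was at 37.4 ± 4.16 against 28.3 ± 4.44 CPM (SD, n = 3 each, edgeR adjusted p = 0.649).

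Genes of the immune pathways downstream of TRIM21 were measured at the same depth. At the share of 0.774% called over all tested genes, each of these lists would also hold few or no calls. Of 23 tested genes for nucleic acid and antibody-virus sensing, Aim2 was called and 22 were not, and the median was -0.005. Of 34 tested interferon response genes none was called, with 13 fitted above 0, 21 below and a median of -0.05. The largest value among those at 1 CPM or more was in Cmpk2, a mitochondrial nucleotide kinase, at 0.803 ± 0.209 against 1.47 ± 0.268 CPM (SD, n = 3 each, log2 fold change -0.86, edgeR adjusted p = 0.505). Of 32 tested NF-kB targets and inhibitors none was called, with 17 above 0 and 15 below. Junb, an early-response transcription factor, was at 21.8 ± 8.76 against 11.6 ± 5.19 CPM, a spread too wide for a call (edgeR adjusted p = 0.653). In the list of immunoproteasome and MHC class I genes, 0 of 20 were called, and H2-Q4, one of a family of near-identical class I genes, was at 5.33 ± 2.92 against 2.66 ± 1.07 CPM.

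In the lists for heat shock and the unfolded protein response (29 tested), autophagy (21), p53 (17), the cell cycle (32), Hox genes (16), sterol and fatty acid synthesis (28) and glycolysis and hypoxia (25), no gene was called. Over all tested genes 0.774% were called, a share at which lists of these sizes would hold few or no calls. The cell cycle list had 27 of 32 members fitted above 0 with a median of 0.10, and its largest value was in Cdt1, a replication licensing factor (0.41, SE 0.183, edgeR adjusted p = 0.594). The sterol list had 22 of 28 members fitted below 0 with a median of -0.13.

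**Figure D4:**
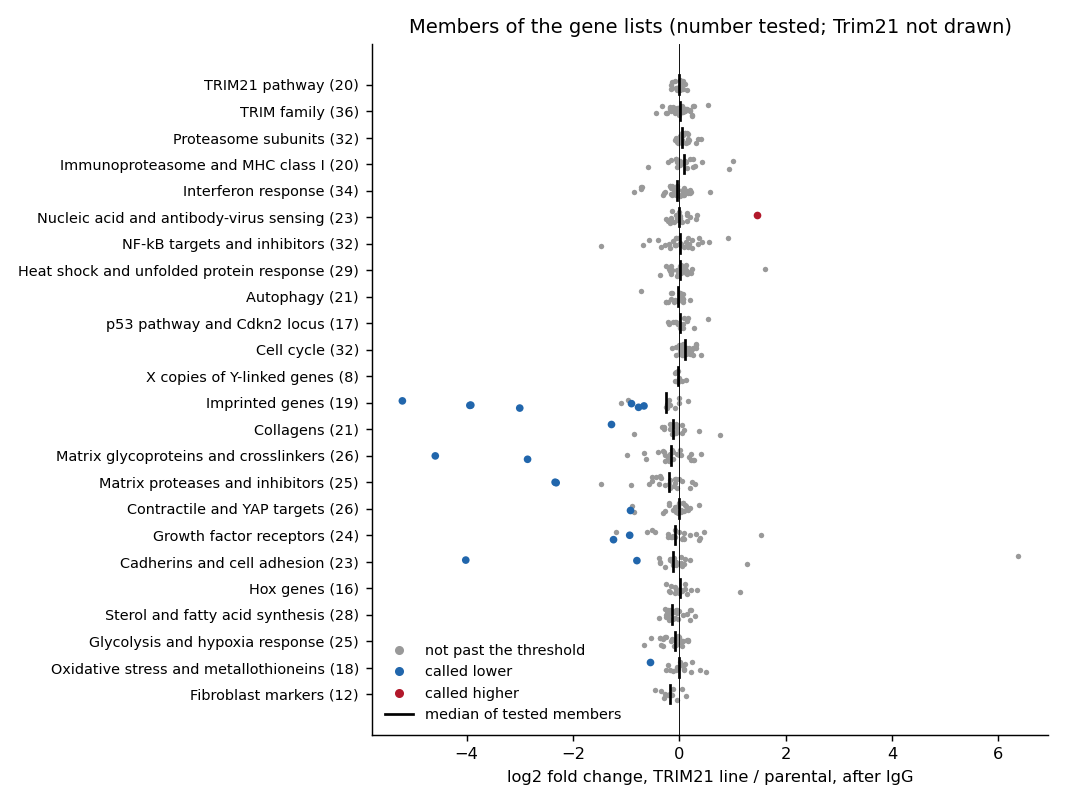
Log2 fold change between the lines after IgG (horizontal axis) of each tested list member, with the number tested in brackets and a black bar at the median. Called members are coloured, blue where lower and red where higher. No member of the proteasome, interferon, NF-kB or cell cycle lists is coloured, and Asb4 is the coloured point farthest to the left. Of all tested genes 0.774% were called. Trim21 and the Y-linked genes are not drawn, so that the 1 red point is Aim2, and the grey point at the far right is Cxadr.

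The PBS and BSA samples of the same lines share no library with the IgG samples, and they gave further readings of each of the 94 genes. The 3 comparisons share the count filter and the estimate of each gene's spread, so their calls are not independent. All 94 had the same direction after PBS and after BSA, where 68.2% and 53.3% of all tested genes had the same sign as after IgG. After PBS, 208 genes (1.71%) were called, 25 higher (0.206%) and 183 lower (1.51%). Of the 94 genes, 88 were among them, which is 93.6% of the IgG calls and 42.3% of the PBS calls. With the title number as a replicate block and an offset for GC content, the PBS count became 1987, with 1011 higher and 976 lower, so its size and its split by direction depend on the model. After BSA, 103 genes (0.848%) were called, 10 higher (0.0824%) and 93 lower (0.766%), and 77 of the 94 were among them, 81.9% of the IgG calls and 74.8% of the BSA calls. In all, 74 genes were called after each of the 3 treatments, 17 after IgG and 1 other treatment, and 3 after IgG alone. Those 3 were Gstm1, Kcnn4 and Ptprk, a receptor tyrosine phosphatase, and each had the same direction after PBS and BSA. Ptprk had log2 fold changes of -0.49 after IgG, -0.41 after PBS and -0.14 after BSA, and its IgG call was lost in each of the 6 fits that left out 1 IgG sample, with DESeq2 size factors and with the strict filter of 10 counts in every sample (edgeR adjusted p up to 0.223). The median log2 fold change of the 94 genes was -1.44 after IgG, -1.42 after PBS and -1.23 after BSA. The 5 genes at 0 counts in the TRIM21 line after IgG are below these medians at their bounds as well.

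**Figure D5:**
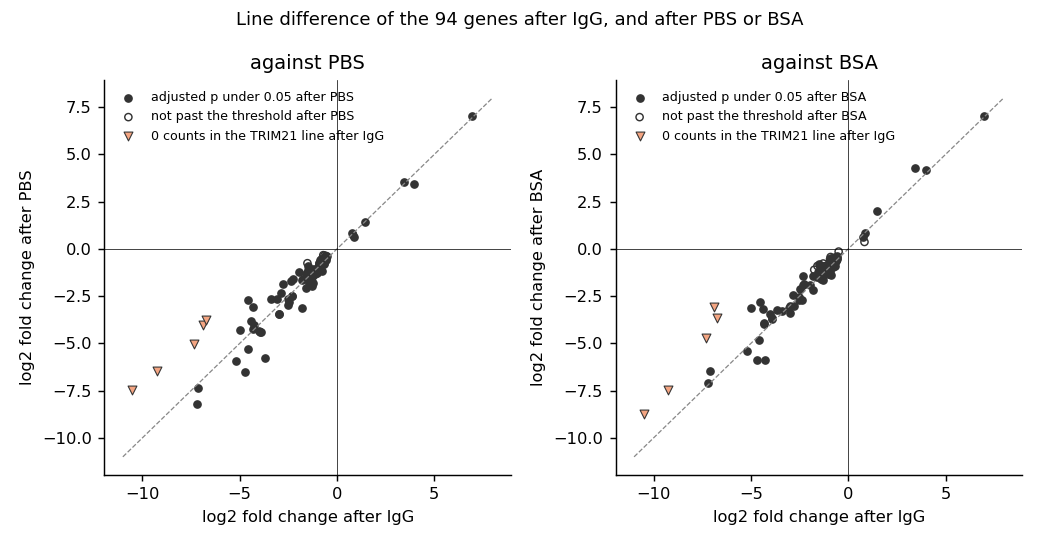
Log2 fold change between the lines of the 94 genes called after IgG (horizontal axes) against that after PBS (left) or BSA (right), with the line of equal values dashed. All points lie to the lower left or upper right of 0, 88 and 77 of them called after PBS and BSA. Triangles are the 5 genes at 0 counts in the TRIM21 line after IgG, whose position depends on the small count that edgeR adds.

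Whether a line difference was larger or smaller with IgG was tested directly by interaction contrasts in the same model. Against PBS, against BSA and against the mean of both, 0 of 12140 genes (0%) passed the threshold by edgeR, with 221, 482 and 212 genes at an unadjusted p under 0.05 where chance gives 607. DESeq2 and limma-voom also gave 0 for each of the 3 contrasts. The smallest adjusted p-values were 0.972, 0.843 and 0.988. Among the 94 genes the interaction against the mean of both had an unadjusted p under 0.05 in 3, Eml5, Enpp1 and Sumo3. Enpp1, which makes extracellular pyrophosphate, fell by 0.88 on the log2 scale after IgG, by 0.60 after PBS and by 0.51 after BSA (interaction -0.32, unadjusted p = 0.00943). The corresponding log2 fold changes were -1.501, -0.90 and -0.80 for the microtubule-binding Eml5, and -2.25, -1.58 and -1.84 for the ubiquitin-like modifier gene Sumo3. The median SE of this interaction over the 94 genes was 0.267, so a change of that size in a single line difference lay within its error.

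The 5 genes with the smallest interaction p against the mean of both were Phf11b, 2700094K13Rik, Cox14, Cebpb and Cox17, all with an edgeR adjusted p of 0.988. In each, the fitted line difference was above 0 after IgG and near or below 0 after PBS and BSA. The assembly factors of cytochrome oxidase Cox14 and Cox17 had log2 fold changes of 0.42 and 0.66 after IgG, -0.01 and 0.03 after PBS, and -0.38 and -0.33 after BSA. For Cebpb, a transcription factor of inflammation and fat cell formation, the values were 0.26, -0.33 and -0.36, and they turned to -0.16 after IgG when an offset for GC content entered the fit with the block.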

How the data were processed

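Polyadenylated RNA of 18 NIH3T3 samples was sequenced with strand-specific libraries, per the labels' protocols, and the authors deposited raw counts of reads per gene symbol, 1 table per sample. Per the submitters' processing notes, the tools were bcl2fastq 2.19.1.403, FastQC 0.11.5, STAR 2.5.1b, HTSeq 0.6.0 and DESeq2 1.6.3 and the build was mm10, with no role or order given. The annotation and the strand setting of the counting are not given in the sources used here. Lines for reads given to no gene were left out of library sizes. In the IgG samples, reads outside annotated genes made up 15.15% to 17.26% and ambiguous reads 0.5144% to 0.5744% of the reads given to genes or to these lines, and 14199493 to 16820872 further entries per sample were for reads aligned to several places.

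Groups of 3 were taken from the labels. The members and gene lists were chosen with earlier results of these data known. Genes were kept by filterByExpr in edgeR 4.0.16 (R 4.3.3; minimum count 10, minimum total 15), which left 12140 of 24062. A quasi-likelihood model with 1 mean for each of 6 groups was fitted to all 18 samples with TMM factors (0.9774 to 1.034), with an adjusted p threshold of 0.05. CPM are counts per 1e6 gene counts with these factors, and a log2 fold change is the TRIM21 line over the parental line. CPM values compare samples within a gene, not genes with each other. The genes named are Trim21, the 10 largest rises and falls among called genes with at least 1 CPM in the higher group and no overlap, up to 4 called members per list, the leading member of lists with none, Y-linked genes with their X copies, and the 5 smallest interaction p-values. Others are said to be chosen after their values were seen. Positions come from GENCODE and RefSeq annotation of GRCm38, matched by symbol: 22750 symbols directly, 227 through RefSeq, 930 through an older symbol and 155 not at all.

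Alternatives were DESeq2 size factors, no filter, at least 10 counts in every sample, the title number as a replicate block, a GC offset (lowess, span 0.3), both together, DESeq2 1.42.0, limma-voom (limma 3.58.1), the 6 IgG samples alone and leaving out each sample. A fit without the TRIM21 PBS sample numbered 11 was added after seeing the data. The procedure was tested on simulated data. Samples of 1 IgG group differed beyond counting noise (smallest chi-square 11 times its degrees of freedom), so none was counted as a duplicate.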

Additional observations from a re-analysis of the deposited data

How the results depend on the processing

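The count of 94 genes after IgG was 92 with DESeq2 size factors, 124 without a filter, 121 with a GC offset and 99 with limma-voom. It moved to 57 with at least 10 counts in every sample, a filter that removes genes near 0 in 1 line, to 166 with the DESeq2 Wald test, to 179 with the 6 IgG samples alone and to 148 without the TRIM21 PBS sample numbered 11, an alternative chosen after seeing the data. All 94 genes were kept in the DESeq2 and added fits and 89 with the IgG samples alone. With the title number as a replicate block it was 173 (19 higher, 154 lower), with the block on the 6 IgG samples 173, and with block and GC offset 246, and all 94 were kept in the block fits on 18 samples. The numbers were not taken to pair the IgG samples: same-number correlations of deviations were 0.41, -0.016 and 0.00357, and 1 of 3 TRIM21 samples correlated best with its own number. Over all groups of the 18 samples, however, the mean correlation was 0.218 for samples with the same number and -0.109 for the others. The main fit on 18 samples thus left out a shared part that the block fits take in. Leaving out 1 IgG sample gave 69 to 85 genes, and 62 of the 94 were called in all 6 such fits. For these differing counts the cause was not tested, except that the strict filter tests fewer genes.

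After PBS the count of 208 was 132 with the strict filter, 847 with the replicate block, 1987 with block and GC offset, 343 with the GC offset and 451 with DESeq2, and 104 to 1018 when 1 PBS sample was left out, 1018 without the TRIM21 sample numbered 14, 122 without that numbered 11 and 104 without the parental sample numbered 14. After BSA the count of 103 was 53, 187, 319 and 164 with the strict filter, the block, block and GC offset, and DESeq2, and 66 to 88 when 1 sample was left out: 66 without the TRIM21 sample numbered 10 and 67 without that numbered 14 or the parental sample numbered 14. Interaction counts were 0 in every fit.

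Of 58 named genes with their alternatives, 852 values kept direction and call, 31 lost the call, 3 gained it and 19 changed sign, all in genes that were not called. With the GC offset alone, or with it and the replicate block, Ddx3x moved to 0.028, Usp9x to 0.033 and 0.039, Lpl to 0.016 and 0.0018, and Cebpb to -0.15 and -0.16. Leaving out 1 IgG sample gave ranges of -0.050 to 0.011 for Ddx3x, -0.14 to 0.17 for Usp9x, -0.042 to 0.030 for Uba1, -0.17 to 0.49 for Xist and -0.23 to 0.15 for Lpl. Depth limits genes under about 1 CPM, which were 897 of the tested genes.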

Other observations

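Outside the gene lists, the called genes included receptors, a transporter, enzymes and secreted proteins, named here after their values were seen. Cd24a, a surface glycoprotein, was at 53.6, 66.3 and 70.2 CPM in the parental line and 7.48, 11.4 and 14.6 CPM in the TRIM21 line (log2 fold change -2.51, edgeR adjusted p = 0.000132). Agtr2, a receptor of angiotensin II, was at 90.5, 103 and 118 CPM against 17.2, 15.8 and 23.2 CPM (log2 fold change -2.47), and Ace, the enzyme that makes angiotensin II, was at 2.56, 3.20 and 4.93 CPM against 0.348, 0.148 and 0.493 CPM (log2 fold change -3.39). The glutamate transporter Slc1a3 was at 124, 113 and 132 CPM against 54.1, 46.3 and 59.0 CPM, a log2 fold change of -1.21 whose call was lost without the TRIM21 sample numbered 11 (edgeR adjusted p = 0.0608). Gas6, the ligand of the Axl, Tyro3 and Mertk receptors, was at 3.62, 3.55 and 4.53 CPM against 0.870, 0.396 and 0.762 CPM (log2 fold change -2.50), while Axl itself was at 989 and 988 CPM. Secreted regulators of other pathways were also among the falls, with log2 fold changes of -3.06 for the Wnt modulator Sfrp2, -1.46 for the guidance cue Ntn1 and -1.29 for Pappa2, a protease of insulin-like growth factor binding proteins. The Pappa2 call was lost without the TRIM21 sample numbered 10 or 14 or the parental sample numbered 11 (edgeR adjusted p up to 0.0968). Rnpepl1 and Epha7 had 53 and 35 counts in the parental group and 0 in the TRIM21 group, at least 6.32-fold and at least 4.10-fold lower with 3 counts per library as the floor. Sfrp2, Rnpepl1 and Epha7 passed the count filter through parental samples only, so they could only be called lower.

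Of 15 genes related to retrotransposon gag proteins, a list made after the data were seen, 7 could be tested and 2 were called, both lower and both on the X chromosome. Of all tested genes 0.774% were called. Because the list was made after the data were seen, its count is a description. Rgag4 (102066544 to 102071304) had 198 to 215 counts per parental sample and 71 to 88 per TRIM21 sample (log2 fold change -1.47, SE 0.151, edgeR adjusted p = 1.32e-05). Cxx1c had 11 to 14 counts per parental sample and 0 in the TRIM21 samples. It passed the count filter through parental samples only, so it could only be called lower. Its near-identical neighbours Cxx1a and Cxx1b had log2 fold changes of 0.12 and -0.05, and the counting may split reads between the 3, so the Cxx1c value is uncertain. By chromosome, 15 of 686 tested genes on chromosome 1 were called, 14 of them lower, 6 of 402 on X and 0 of 395 on chromosome 14, beside 94 of 12140 overall. Called genes within 1e6 bases of each other, apart from the Y-linked and the imprinted ones, were Gstm1 with Gstm2, Camk1d with Phyh, Islr with Stra6, and Nhsl2 with Rgag4. Rgag4 lies inside Nhsl2 on the other strand. How the counting shared reads between Rgag4 and Nhsl2 is not stated, so both values are uncertain and may not be separate readings. The 87 lower genes had a median level of 4.35 CPM over the 18 samples, where all tested genes had 31.6 CPM. The former value takes in the line in which these genes were low. In the higher of the 2 IgG groups the medians were 6.91 and 32.5 CPM.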
